A study of Mus musculus with 8 samples.

Results

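A group of 9 genes, *Glipr2*, *Ddx3x*, *Slc9a3r1*, *Dcaf12*, *Themis2*, *Gpat4*, *Abcc8*, *Reln* and *Ddah1*, was followed through 3 stages of mouse spermatogonial development. The 9 were chosen by a single property, a lower mRNA level in A3 than in A1 spermatogonia, out of 5736 genes in the expression table analysed. Their fall from A1 to A3 is therefore given as a description, and nothing is read from its size or from any threshold it meets. The question put to the data was what each gene did one step earlier, between undifferentiated Aal spermatogonia and A1 spermatogonia.

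Bulk RNA-seq covered 2 libraries of Aal, 3 of A1 and 3 of A3 spermatogonia, all from mice of the CD1:Uchl1-eGFP genotype, a transgene that makes EGFP from the *Uchl1* promoter, first built on C57BL/6 and outcrossed to CD-1. EGFP-positive germ cells were sorted from testes pooled from at least 5 pups of a litter, and the study's methods give 2 or 3 independent cell preparations per stage. The labels attach the same treatment to every library: bis-(dichloroacetyl)-diamine, which blocks the making of retinoic acid (RA), by mouth at 100 µg per g of body weight for 10 days from postnatal day 1, and 10 µl of RA at 10 µg/µl under the skin on day 11. Undifferentiated Aal cells fill the testis before the injection, A1 cells were taken 24 h after it, and A3 cells at a later age that the labels do not give; whether the Aal pups had received RA is not stated separately. Each library is thus a mixture of many cells from several pups, sorted by a reporter that marks spermatogonia of every stage rather than 1 stage.

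Type A spermatogonia are the mitotic cells from which sperm are made. Undifferentiated cells divide and stay joined as chains of aligned cells, called Aal, until RA from the surrounding somatic cells moves them into the differentiating series that begins with A1 and passes through A2 and A3 before meiosis. The transition is known for a brief response to RA, after which the cells keep dividing, and a gene may be switched off with RA itself or only later as the series proceeds. The 9 genes belong to no common pathway. Reln is a large secreted glycoprotein that signals through lipoprotein receptors, Abcc8 is the sulfonylurea receptor that regulates ATP-sensitive potassium channels, and Slc9a3r1, also called NHERF1, is a scaffold that links membrane proteins to ezrin and actin. Themis2 is an adaptor of B cell receptor signalling. Inside the cell, Ddx3x is a DEAD-box RNA helicase that acts in translation initiation, and Dcaf12 is a substrate receptor of the CUL4-DDB1 ubiquitin ligase. Gpat4 carries out the first acylation step of glycerolipid synthesis, Ddah1 degrades methylated arginines that inhibit nitric oxide synthases, and Glipr2 is a Golgi-associated member of the CAP protein family.

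Values are FPKM, reads scaled to the length of the gene and to the reads of the library, so levels of different genes can be set side by side. On that scale *Ddx3x* and *Reln* were the most abundant of the 9 in Aal, with *Reln* above 94.4% of all genes in the table, and *Glipr2* was the least, above 51.2%. Recovered whole reads for the 9 genes ran from 78 to 20975 per library, which gives a counting error of 0.69% to 11.3%, and the coefficient of variation within a group ran from 0.252% to 17.2% with a median of 5.81%. In bulk samples, fewer cells of a type and less RNA per cell cannot be told apart.

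Positions on mm9 were found for 8 of the 9 genes. *Glipr2* (chr4:43970273-43991990, plus strand) and *Dcaf12* (chr4:41238333-41261922, minus strand) lie on the same chromosome. *Ddx3x* lies at chrX:12858096-12871178, *Slc9a3r1* at chr11:115024655-115042495, and *Ddah1* at chr3:145421639-145557241, all on the plus strand. *Gpat4*, listed in that annotation under its older symbol *Agpat6*, lies at chr8:24283418-24318925, *Abcc8* at chr7:53359893-53435403 and *Reln* at chr5:21390272-21850523, all on the minus strand. *Themis2* was not matched by symbol. *Reln* is the longest of the 8, spanning 460252 bases with 65 exons in its longest transcript, and some of those exons overlap the gene model *Gm10475* on the other strand. The library kit kept strand, but the strand setting in counting is not given in the sources used here, so reads of that pair may not be fully separated.

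The promoter windows of 4 of the genes are shown because the genes took different paths before A1: *Glipr2* was already rising, *Ddx3x* and *Themis2* moved little, and *Reln* was already falling. Each window runs from 250 bases before to 50 bases after the RefSeq start on the GRCm38.p6 build, a different build from that of the positions above, and is read 5′ to 3′ on the strand of the gene. Capitals mark the motifs found, which are the GC box GGGCGG, seen as its complement CCGCCC where it lies on the other strand, the E-box CACGTG and the nuclear receptor half-site AGGTCA.
Glipr2 (chr4:43957452-43957751, plus strand): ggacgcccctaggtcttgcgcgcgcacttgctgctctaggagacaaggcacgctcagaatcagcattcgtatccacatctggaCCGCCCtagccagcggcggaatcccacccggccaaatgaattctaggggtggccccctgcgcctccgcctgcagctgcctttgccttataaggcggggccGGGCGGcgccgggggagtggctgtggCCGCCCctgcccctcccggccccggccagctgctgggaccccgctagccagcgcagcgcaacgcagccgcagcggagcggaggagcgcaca
Ddx3x (chrX:13280772-13281071, plus strand): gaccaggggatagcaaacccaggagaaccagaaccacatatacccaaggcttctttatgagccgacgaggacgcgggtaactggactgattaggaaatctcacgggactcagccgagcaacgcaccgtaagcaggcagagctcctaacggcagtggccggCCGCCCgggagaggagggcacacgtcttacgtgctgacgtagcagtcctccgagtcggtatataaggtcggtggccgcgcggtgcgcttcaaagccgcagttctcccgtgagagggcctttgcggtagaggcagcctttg
Themis2 (chr4:132796315-132796614, minus strand): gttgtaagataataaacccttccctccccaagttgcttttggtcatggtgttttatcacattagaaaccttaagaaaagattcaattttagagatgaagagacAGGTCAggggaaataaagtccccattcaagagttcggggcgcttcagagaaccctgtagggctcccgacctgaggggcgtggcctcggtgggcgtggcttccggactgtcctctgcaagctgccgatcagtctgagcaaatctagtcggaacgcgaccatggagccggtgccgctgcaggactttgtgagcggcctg
Reln (chr5:22344656-22344955, minus strand): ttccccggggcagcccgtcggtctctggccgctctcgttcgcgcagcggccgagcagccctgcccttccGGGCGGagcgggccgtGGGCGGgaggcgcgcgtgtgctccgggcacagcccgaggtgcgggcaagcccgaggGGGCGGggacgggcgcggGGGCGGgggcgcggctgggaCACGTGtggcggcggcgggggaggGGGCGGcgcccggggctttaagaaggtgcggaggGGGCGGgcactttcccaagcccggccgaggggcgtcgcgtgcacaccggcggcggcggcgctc
RefSeq windows were matched for 7 of the 9 genes, all but *Abcc8* and *Gpat4*. Both strands were searched for 8 motifs. The GC box was found in 5 of the 7 windows, *Dcaf12*, *Ddx3x*, *Glipr2*, *Reln* and *Slc9a3r1*, against 35.7% of all 32851 windows, with 6 copies in *Reln*. The half-site AGGTCA was in the *Themis2* window only, at base -147 from the start, against 16.3% of all windows. None of the 7 windows held its direct repeats with a spacer of 5 (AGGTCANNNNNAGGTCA, 0.00913% of all windows), of 2 (AGGTCANNAGGTCA, 0.00913%) or of 1 (AGGTCANAGGTCA, 0.0396%), each of which contains the half-site. The TATA box TATAAA (13.6%) and the cyclic AMP response element TGACGTCA (1.79%) were also absent from these letters, and the E-box CACGTG (7.15%) was in the *Reln* window alone. GC content ran from 52.7% in *Themis2* to 80.7% in *Reln*, beside a median of 52.7% over all windows.

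Of the 9 genes, *Glipr2* and *Abcc8* rose from Aal to A1 at an adjusted p of at most 0.01 and *Reln* fell, while the other 6 moved by less than 0.3 on the log2(FPKM + 1) scale. No gene passed the call that also asks for more than a 2-fold change. Set against the fall that followed, the stage before it thus held 3 kinds of history: a rise, a near level course and an early fall. The plot of FPKM by library shows them in that order.

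**Figure D1:**
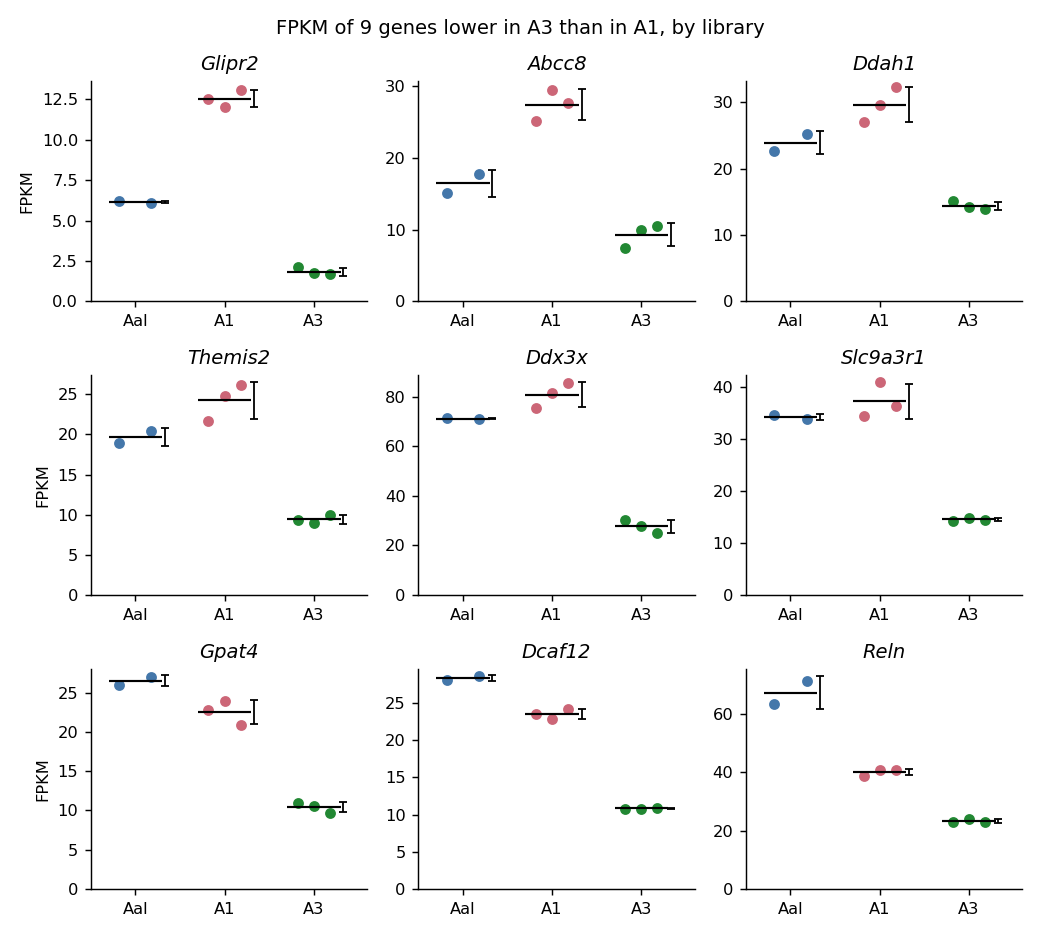
FPKM of the 9 genes (y axis, from 0 in every panel, each with its own scale) in Aal, A1 and A3 libraries (x axis); points are libraries, horizontal lines group means and vertical bars beside them ± SD. In every panel the 3 A3 libraries sit below all others, while A1 sits above Aal for *Glipr2* and *Abcc8* and below it for *Reln*.

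*Glipr2* had the clearest rise before its fall. Its 2 Aal libraries stood at 6.21 and 6.10 FPKM, its A1 libraries at 12.5, 12.0 and 13.1, and its A3 libraries at 2.12, 1.73 and 1.67. The 3 groups did not overlap, with A1 highest and A3 lowest. The A1 mean was 2.04 times the Aal mean, a log2 fold change of 0.92 ± 0.09 (SE; 95% interval 0.70 to 1.14; limma, adjusted p = 0.000378). The A3 mean then stood at 14.7% of the A1 mean and 29.9% of the Aal mean. On the log2(FPKM + 1) scale the fall from A1 was -2.26, the largest of any gene tested. That scale shrinks the falls of low genes, and as a ratio *Ccdc42* fell further, from a mean of 2.05 FPKM in A1 to 0.207 in A3.

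*Abcc8*, the potassium channel regulator, followed the same course at a smaller size. Aal libraries held 15.2 and 17.8 FPKM, A1 libraries 25.1, 29.5 and 27.7, and A3 libraries 7.47, 10.0 and 10.4. Every A1 library was above every Aal library and every A3 library below them, although A3-1 stood apart from the other two A3 libraries. The rise to A1 was 1.67-fold, with a log2 fold change of 0.70 ± 0.10 (95% interval 0.47 to 0.94; adjusted p = 0.0014). Without the first Aal library the rise was 0.59 and its adjusted p 0.0173. A3 fell to 33.9% of A1 and 56.5% of Aal.

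*Ddah1*, *Themis2* and *Ddx3x* were slightly higher in A1 than in Aal. *Ddah1* measured 22.7 and 25.2 FPKM in Aal, 27.1, 29.6 and 32.3 in A1, and 15.1, 14.3 and 13.9 in A3. *Themis2* measured 18.9 and 20.5 in Aal, 21.7, 24.8 and 26.2 in A1, and 9.30, 8.96 and 10.0 in A3. For both genes the A1 libraries lay just above the Aal libraries and both groups lay clear of A3. The A1 minus Aal differences were 0.30 ± 0.09 for *Ddah1* (95% interval 0.08 to 0.51; adjusted p = 0.0375) and 0.28 ± 0.10 for *Themis2* (0.06 to 0.51; adjusted p = 0.0488) on the log2 scale. Neither passed 0.05 when either Aal library, A1-2 or A1-3 was left out, with adjusted p from 0.0628 to 0.214 for *Ddah1* and from 0.0887 to 0.235 for *Themis2*.

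*Ddx3x*, the RNA helicase, was the most abundant of the 9 per length in A1. It held 71.3 and 71.0 FPKM in Aal, 75.4, 81.3 and 85.4 in A1, and 30.3, 27.9 and 25.0 in A3. The Aal and A1 libraries lay close together without overlapping, and the A3 libraries lay far below. The difference of A1 from Aal was 0.18 ± 0.07 (95% interval 0.02 to 0.34; adjusted p = 0.077), whereas A3 stood at 34.3% of A1 and 39.0% of Aal.

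*Slc9a3r1*, the ezrin-binding scaffold, came nearest to a level course. Aal libraries held 34.6 and 33.8 FPKM, A1 libraries 34.5, 41.0 and 36.3, and A3 libraries 14.3, 14.9 and 14.5. It was the only gene of the 9 whose Aal and A1 libraries overlapped, and its A3 libraries were almost equal to each other. The difference of A1 from Aal was 0.12 ± 0.08 (95% interval -0.08 to 0.31; adjusted p = 0.308), so these libraries bound the change to between -0.08 and 0.31. A3 then fell to 39.0% of A1.

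*Gpat4* and *Dcaf12* were slightly lower in A1 than in Aal before the larger fall. *Gpat4* measured 26.0 and 27.0 FPKM in Aal, 22.8, 23.96 and 20.9 in A1, and 10.9, 10.6 and 9.73 in A3. *Dcaf12* measured 28.1 and 28.6 in Aal, 23.6, 22.9 and 24.2 in A1, and 10.8, 10.8 and 10.9 in A3. The 3 groups of each gene lay in descending order without overlap. From Aal to A1 *Gpat4* differed by -0.23 ± 0.08 (95% interval -0.41 to -0.04; adjusted p = 0.0561) and *Dcaf12* by -0.26 ± 0.06 (-0.41 to -0.11; adjusted p = 0.0163). The adjusted p of *Dcaf12* exceeded 0.05 without Aal-1 (0.0658), Aal-2 (0.0985) or A1-2 (0.0706). In A3 the 2 genes stood at 46.2% and 45.9% of A1.

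*Reln*, the secreted ligand, had already changed. Its Aal libraries held 63.3 and 71.4 FPKM, its A1 libraries 38.9, 40.7 and 40.9, and its A3 libraries 22.9, 24.04 and 23.0. Each stage lay wholly below the stage before it. *Reln* fell by 0.73 ± 0.07 from Aal to A1 (log2 fold change, 95% interval -0.90 to -0.56; adjusted p = 0.000352), to 59.6% of the Aal mean. The further fall to A3 was -0.76 (95% interval -0.89 to -0.63), a step of like size, to 58.0% of A1.

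Counted over the 9 genes, A1 against Aal gave 0 called genes in either direction in limma, beside 4.19% of 4632 genes tested that were called higher in A1 and 4.97% called lower. At an unadjusted p under 0.05 the count was 8 of 9, a level that 49.7% of all genes also reached. Limma voom on the recovered reads called 1, *Glipr2*, beside 15.8% of all genes, and gave 8 of 9 an unadjusted p under 0.05, beside 50.5%. At an adjusted p of at most 0.01 without the fold threshold, 2 of 9 were higher, against 13.0% of all genes, and 1 of 9 was lower, against 14.0%. At 0.05 these counts were 4 higher, against 21.4%, and 2 lower, against 20.6%. The 95% interval lay within 2-fold either way for 8 of 9 genes, all but *Glipr2*, a share that 74.2% of all genes also reached. Every A1 library was above every Aal library for 5 of 9 genes (34.6% of all genes) and below for 3 (29.4%). The median difference was 0.18 over the 9 genes and 0.03 over all genes tested. The A1 libraries also took part in choosing the 9 genes, which favours genes that are high in A1, so the higher and lower counts of this step are not independent of the choice.

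**Figure D2:**
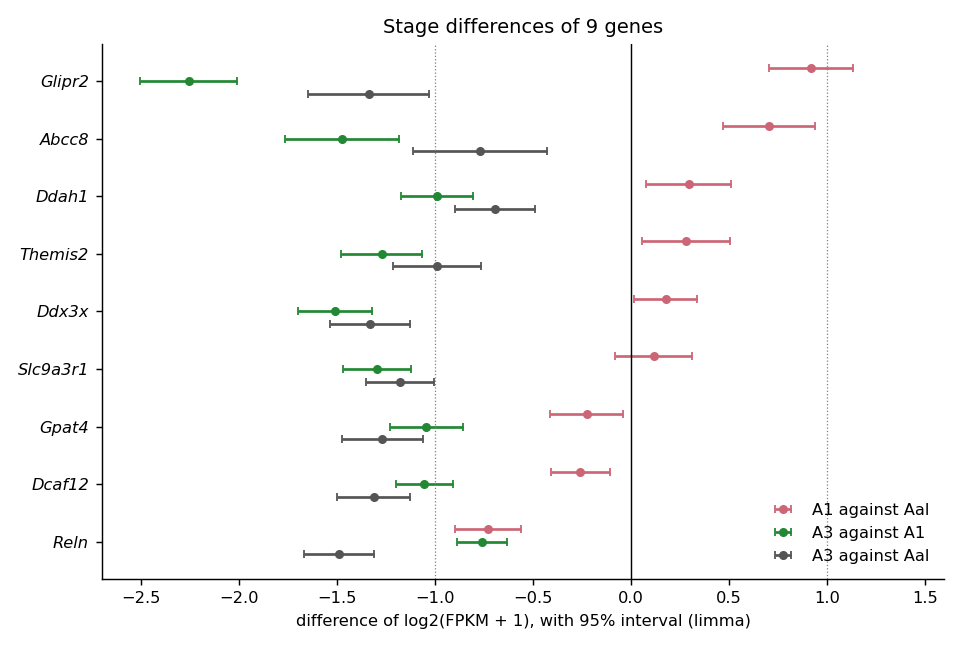
Differences of log2(FPKM + 1) between stages (x axis) for the 9 genes (y axis), as limma estimates with 95% intervals; dotted lines mark a 2-fold change. The A1 against Aal estimates run from -0.73 for *Reln* to 0.92 for *Glipr2*, while every A3 estimate is below 0.

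The fall from A1 to A3 by which the genes were chosen differed in size. On the log2 scale it was -2.26 for *Glipr2*, -1.51 for *Ddx3x*, -1.47 for *Abcc8*, -1.30 for *Slc9a3r1*, -1.27 for *Themis2*, -1.05 for *Dcaf12*, -1.04 for *Gpat4*, -0.99 for *Ddah1* and -0.76 for *Reln*. In all 9 genes every A3 library was below every A1 library, as in 20.1% of the 4590 genes tested. The call used for the whole table, more than a 2-fold fall at an adjusted p of at most 0.01, held 1.02% of all genes. It held 7 of the 9, which follows from how they were chosen and is no test of them. *Ddah1* lay just outside the 2-fold line at -0.99, *Gpat4* just inside it at -1.04, and *Reln* further outside. By size of fall on the log2(FPKM + 1) scale the genes ranked from 1 (*Glipr2*) to 190 (*Reln*) among all genes lower in A3. The 9 are therefore not the 9 deepest falls of the table.

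Another 40 genes met the same threshold, with falls from -2.15 to -1.002, led by *Foxn4* at -2.15, *S100a6* at -1.56 and *C3* at -1.53. Before that fall 9 of the 40 had been called higher in A1 than in Aal and 0 called lower, beside 4.19% and 4.97% of all genes. At an adjusted p of at most 0.01 alone the counts were 10 higher and 5 lower, beside 13.0% and 14.0%. The A1 libraries also took part in picking these 40, which favours genes that are high in A1. *Foxn4*, a forkhead transcription factor gene, went from a mean of 0.43 FPKM in Aal to 18.8 in A1 and 3.38 in A3. *Glipr2* shared the peak in A1, but its A3 level was below its Aal level, whereas that of *Foxn4* was above. Ending below Aal was not particular to *Glipr2*. *S100a6* had means of 0.96, 3.89 and 0.63 FPKM in Aal, A1 and A3, while *C3* ended above Aal (0.94, 6.59 and 1.68).

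Relative to the undifferentiated stage, all 9 genes ended lower. Every A3 library was below every Aal library in 9 of 9 genes, as in 34.2% of the 4687 genes tested, and the A3 means stood at 29.9% to 60.2% of the Aal means. The net differences, which share the A3 libraries that chose the genes and so were not tested, were largest for *Reln* at -1.49 (95% interval -1.67 to -1.31) and smallest for *Ddah1* at -0.69 (-0.90 to -0.49). *Glipr2* (-1.34), *Ddx3x* (-1.33) and *Dcaf12* (-1.31) had like net differences, although their A1 minus Aal differences were 0.92, 0.18 and -0.26. *Abcc8* ended at -0.77 although its fall from A1 was among the deepest of the 9, since it had first risen. *Gpat4* (-1.27), *Slc9a3r1* (-1.18) and *Themis2* (-0.99) lay between. The plot of stage differences shows the 3 estimates side by side.

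**Figure D3:**
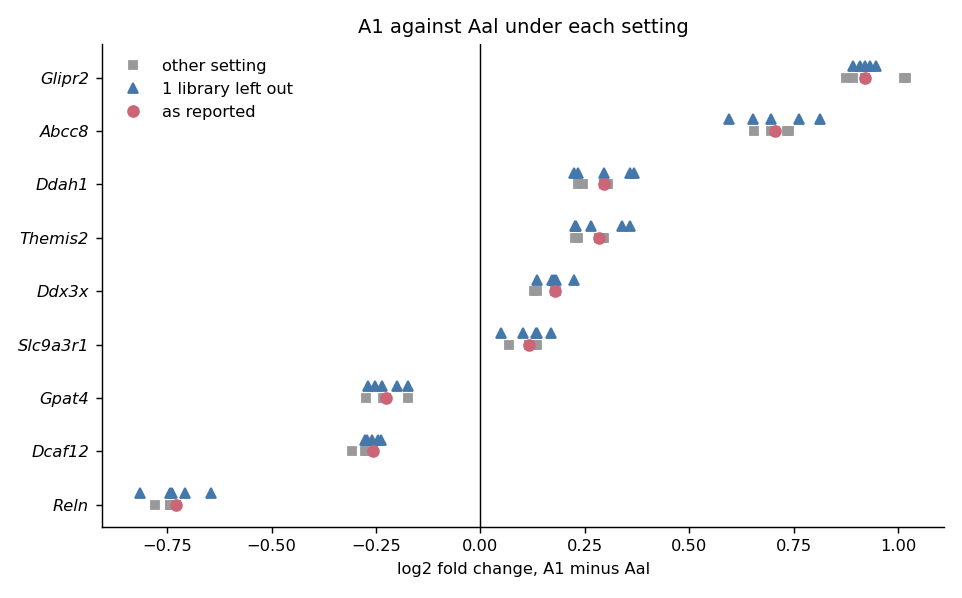
Log2 fold change of A1 against Aal (x axis) for each of the 9 genes (y axis) as reported (circles), under other settings of the fit (squares) and with 1 library left out (triangles). All values of a gene keep their side of 0, and *Slc9a3r1* comes nearest to 0, at 0.05 without A1-2.

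Close relatives and known partners of the 9 genes did not all move with them. *Ddx3x* has a Y-linked copy, *Ddx3y*, and an intronless copy expressed in male germ cells, *D1Pas1*. *D1Pas1* held 17.4 and 17.7 FPKM in Aal, 20.7, 20.3 and 19.7 in A1, and 18.3, 17.9 and 17.1 in A3, and *Ddx3y* ran from 6.43 to 8.37 FPKM over the 8 libraries. Neither copy showed the drop of *Ddx3x*: their A3 minus A1 differences were -0.18 (95% interval -0.33 to -0.04; adjusted p = 0.0818) and -0.01 (-0.26 to 0.25; adjusted p = 0.961), against -1.51 for *Ddx3x*. From Aal to A1 the differences were 0.20 for *D1Pas1* (adjusted p = 0.0579) and -0.13 for *Ddx3y* (adjusted p = 0.409). Of 4618 windows of 75 bases in the *Ddx3x* transcript, the read length used, 0 were identical to either copy, while 1.45% came within 3 mismatches of *D1Pas1* and 0.52% of *Ddx3y*. Few stretches of the transcript could thus share reads with a copy.

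*Lrp8*, a receptor for reelin, moved opposite to its ligand. It held 2.23 and 1.77 FPKM in Aal, 5.31, 7.64 and 9.49 in A1, and 11.4, 16.1 and 16.5 in A3. The stages stepped up without overlap while *Reln* stepped down. *Lrp8* rose by 1.47 ± 0.22 from Aal to A1 (95% interval 0.96 to 1.99; adjusted p = 0.0017), and its A3 minus A1 difference was 0.90 (0.42 to 1.38; adjusted p = 0.0219). Without Aal-1 the rise was 1.58 with an adjusted p of 0.0172, and without Aal-2 it was 1.36 with 0.0302, so its call rested on both Aal libraries. *Vldlr*, the other main reelin receptor, stayed between 0.23 and 0.58 FPKM and was not tested.

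*Ddah2*, the other dimethylargininase, had a different timing from *Ddah1*. It held 30.8 and 34.1 FPKM in Aal, 13.2, 11.4 and 14.1 in A1, and 12.8, 10.7 and 12.9 in A3. It fell by 1.27 ± 0.10 on the log2 scale from Aal to A1 (95% interval -1.52 to -1.03; adjusted p = 0.000247) and then differed by -0.08 (-0.33 to 0.17; adjusted p = 0.672). *Ddah2* thus reached its lower level by A1, when *Ddah1* was still at or above its Aal level. *Ddb1*, the adaptor through which Dcaf12 joins its ligase, stayed between 168 and 187 FPKM, and *Grb2*, a partner of Themis2, between 21.1 and 25.2. Their A3 minus A1 differences were -0.01 for *Ddb1* (adjusted p = 0.907) and 0.10 for *Grb2* (adjusted p = 0.304).

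**Figure D4:**
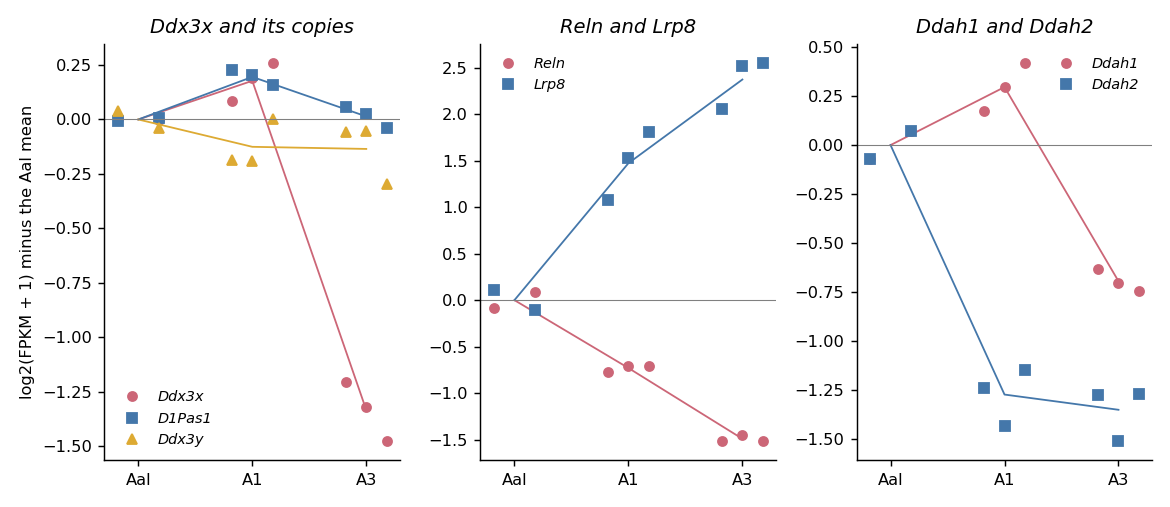
Log2(FPKM + 1) minus the Aal mean (y axis, with its own scale in each panel) in Aal, A1 and A3 libraries (x axis) for *Ddx3x* with *D1Pas1* and *Ddx3y*, *Reln* with *Lrp8*, and *Ddah1* with *Ddah2*; symbols are libraries and lines join stage means. *Ddx3x* drops in A3 while its copies stay near 0, *Lrp8* climbs as *Reln* falls, and *Ddah2* drops in A1, before *Ddah1*.

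In all, the lists of relatives and pathway partners of the 9 genes named 193 genes, of which the table held 53 and 47 were tested. From Aal to A1 *Lrp8* was the 1 gene called higher and *Ddah2* the 1 called lower, and from A1 to A3 0 were called, with median differences of 0.01 and 0.02 beside 0.03 and 0.01 over all genes tested. By list, tested genes numbered 11 for DEAD-box helicases and translation initiation, 9 for the CUL4-DDB1 ligase, 7 for reelin signalling, 6 for CAP proteins and Beclin 1 autophagy, 5 for ezrin and NHERF scaffolds, 4 each for glycerolipid synthesis and for dimethylarginine and nitric oxide, 3 for partners of Themis2 and 0 for the potassium channel list, with a few genes on more than 1 list. The list genes with the largest falls from A1 to A3 were picked out after their values were seen. They were *Slc9a3r2*, the paralogue of *Slc9a3r1*, at -0.99 (adjusted p = 0.0182), and *Crispld2*, a CAP family gene like *Glipr2*, at -0.83 (adjusted p = 0.000969). *Slc9a3r2* held 12.4, 14.9 and 14.6 FPKM in A1 and 9.87, 4.88 and 5.60 in A3, with A3-1 apart from the others. With a library left out its difference ran from -1.26 to -0.82. The adjusted p in limma was 0.00161 without A3-1 but 0.0725 without A3-3, so this fall depended on the libraries kept. *Fyn*, a kinase of the reelin and Themis lists also picked out afterwards, had decreased by the A1 stage, from 50.1 and 48.4 FPKM in Aal to 27.3, 23.8 and 28.4 (log2 fold change -0.87, adjusted p = 0.00037). Other list genes moved both ways at that step. In limma *Ddx39* rose by 0.87 (adjusted p = 0.000316) and *Dab2ip*, of the reelin list, by 0.64 (0.00179), while *Dcaf6* differed by -0.79 (0.000423).

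The gene most like each of the 9 was sought among 4780 genes outside the 9 by the root mean square difference of log2(FPKM + 1), centred on each gene's mean over the 8 libraries. *Reln* was closest to *Cfap74* (0.06), whose means were 6.11, 3.31 and 1.48 FPKM in Aal, A1 and A3. *Gpat4* (0.06) and *Dcaf12* (0.10) were closest there to *Epc2*, with means of 13.3, 11.5 and 5.38. *Slc9a3r1* (0.08), *Themis2* (0.09) and *Ddx3x* (0.17) were all closest to *Rasl10b*, at 5.33, 6.22 and 2.04, and *Ddah1* to *Erbb3* (0.10). *Abcc8* (0.17) and *Glipr2* (0.47) were closest there to *Col6a2*, at 3.76, 6.74 and 2.12, although for *Glipr2* the likeness was weak. Among the 9 themselves, *Dcaf12* and *Gpat4* differed from each other by 0.08, nearer for *Dcaf12* than *Epc2*. *Ddx3x* was likewise nearer to *Slc9a3r1* (0.13) than to *Rasl10b*, and *Glipr2* nearer to *Ddx3x* (0.36) than to *Col6a2*.

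The identity of the sorted cells was checked with marker genes. *Uchl1* held 4048 to 7270 FPKM and the germ cell gene *Dazl* 303 to 437 over the 8 libraries. Of 20 germ cell and spermatogonia markers 9 were in the table and tested. From Aal to A1, 5 of them were called lower, *Nanos2*, *Nanos3*, *Id4*, *Ret* and *Upp1*, beside 4.97% of all genes tested. Another 2 were called higher, *Sohlh2* and *Rec8*, beside 4.19%. From A1 to A3 0 of these 9 markers were called, beside 69 of all 4590 genes tested. *Nanos3*, a gene of undifferentiated spermatogonia, held 91.4 and 112 FPKM in Aal and 12.2 to 21.7 in A1. *Kit*, *Stra8* and *Zbtb16* were not analysed here. Somatic markers moved with the stage. The summed FPKM of 13 of 24 Sertoli cell genes was 57.0 and 44.9 in Aal, 70.9, 69.9 and 422 in A1, and 406, 301 and 223 in A3. A1-3 thus resembled the A3 libraries in this sum and not the other two A1 libraries. Among the A1 libraries, A1-3 was the highest for 6 of the 9 genes and the lowest for 1. It stood above every A3 library in all 9, which the choice of the genes fixes and which says nothing of that library. *Rec8*, a cohesin gene not among the 9, held 23.8, 32.1 and 29.0 FPKM in A1 and 14.9, 17.1 and 15.1 in A3. Leaving out library A1-3 moved the A1 against Aal differences of *Glipr2*, *Abcc8* and *Reln* to 0.89, 0.70 and -0.74.

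**Figure D5:**
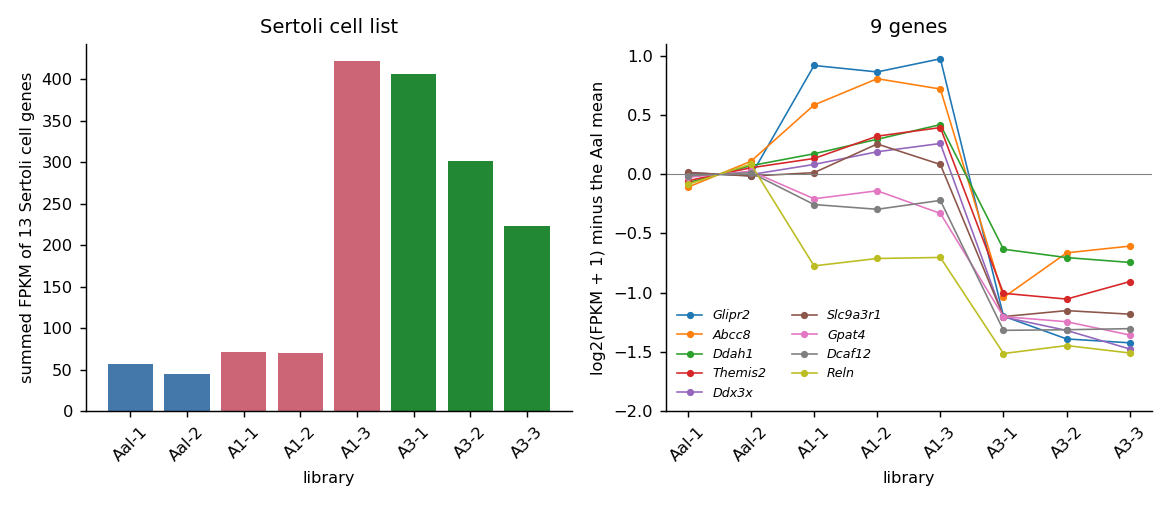
Left, summed FPKM of 13 Sertoli cell genes (y axis, from 0) in each library (x axis); right, log2(FPKM + 1) minus the Aal mean (y axis) of the 9 genes in the same libraries. On the left A1-3 stands at 422, near the A3 libraries; on the right the drop between A1-3 and A3-1 is the one the genes were chosen for.

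Endothelial genes (5 of 9 in the table) summed to 16.2 to 19.0 FPKM in Aal, 7.56 to 13.3 in A1 and 4.46 to 4.77 in A3. This sum was lower at each stage like *Reln*, *Gpat4* and *Dcaf12*, and its part in those results was not tested. The genes behind it did not move together. Means in Aal, A1 and A3 fell for *Cd34* (9.23, 4.36, 1.63) and *Cdh5* (5.15, 3.23, 1.26) but rose for *Tie1* (0.09, 0.29, 0.45). *Tek* was highest in A1 (1.13, 1.31, 0.67), and *Kdr* was level after A1 (1.96, 0.56, 0.56). Leydig (3 of 7), peritubular myoid (3 of 7) and macrophage and leukocyte genes (5 of 13) reached at most 8.39, 6.53 and 12.4, each in A1-3, and at most 3.42, 3.36 and 4.26 in any library of the other two stages. The whole table held 0 values of 0, so no marker in it could be at 0 in a library. The red blood cell list had 0 of 6 genes in the table and was not analysed. Spermatocyte and spermatid genes (3 of 10) summed to 77.3 to 121 in the 8 libraries and dissociation genes (3 of 12) to 3.93 to 10.7, highest in Aal.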

How the data were processed

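EGFP-positive germ cells of 8 libraries were sequenced from stranded mRNA libraries as single-end reads of 75 bases. The authors trimmed reads with cutadapt 1.9, aligned them to mm9 with STAR 2.5.2b and counted them with featureCounts, as the submitters' processing notes name them. The deposited values are FPKM; the gene annotation used and how counts became FPKM are not given in the sources used here. Groups came from sample titles.

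FPKM steps gave whole reads within 0.01 for 100% of values; recovered library totals were 18276164 to 27316451 reads, of which the table held 34.0% to 34.4%. For tests, FPKM was put on the scale log2(FPKM + 1) and fitted in limma 3.58.1 under R 4.3.3 (trended eBayes, two-sided), each pair of stages on its own libraries, for genes with FPKM of at least 1 in at least 2 libraries. Fold changes on this scale understate those of low genes. A call needed a p, adjusted over all genes by Benjamini-Hochberg, of at most 0.01 together with a log2 fold change above 1 in size. Positions came from GENCODE M1. No DNA sequence was read by coordinates. Replicate libraries differed beyond sampling noise.

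The 9 genes, the lists and the naming rule (the 9 genes, called list genes, direct partners, the most similar gene of each, and the 3 deepest other falls) were chosen with earlier results of these data known. Alternatives were another pseudocount, other filters, size factors, a pooled fit, no trend, a threshold of 0.05, voom on recovered reads, a replicate block and leaving out each library.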

Additional observations from a re-analysis of the deposited data

How the results depend on the processing

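No A1 against Aal difference of the 9 genes changed sign under the 14 alternatives. The count of the 9 genes called in A1 against Aal was 0, and 1 with a pseudocount of 0.1 and with voom, where *Glipr2* reached 1.01 and 1.02; it was 0 to 0 with a library left out. Over the alternatives the adjusted p ran from 0.00019 to 0.00793 for *Glipr2*, from 0.00005 to 0.00701 for *Reln*, from 0.00021 to 0.0173 for *Abcc8*, from 0.0082 to 0.0985 for *Dcaf12*, from 0.0186 to 0.214 for *Ddah1*, from 0.0141 to 0.235 for *Themis2*, from 0.0359 to 0.242 for *Gpat4*, from 0.0334 to 0.232 for *Ddx3x* and from 0.148 to 0.702 for *Slc9a3r1*. Size factors moved the median of all genes from 0.03 to -0.01.

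Of all genes, 424 were called in A1 against Aal, 670 with the pseudocount of 0.1, 731 with voom and 179 to 475 with a library left out (179 without Aal-2). In A3 against A1 69 were called, 152 with that pseudocount, 199 with voom and 26 to 111 with a library left out, lowest without A3-2 (26), A3-3 (32) and A1-2 (32) and highest without A1-3 (111) and A3-1 (107). In A3 against Aal 823 were called, 538 at a minimum of 5 FPKM and 597 to 878 with a library left out. The list genes gave 2 calls, 6 with voom and 1 to 3 with a library left out. The cause of these shifts was not tested.

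A replicate block changed the counts to 444, 39 and 800 in the order A1 against Aal, A3 against A1 and A3 against Aal. Against Aal the block leaves the third A1 or A3 library without a partner, so that library adds nothing to the difference. Same-numbered libraries did not deviate together (correlations of deviations from -0.323 to 0.045). These values gave no sign of pairing, but so few libraries cannot show whether same-numbered ones were prepared together.

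With 2 or 3 pooled preparations a stage, small differences such as that of *Slc9a3r1* are bounded only by their intervals, and a left-out library can leave Aal with 1, whose spread is then taken from the other group. The table holds 34.0% to 34.4% of the reads, so partners outside it were not analysed here. Stage and collection age cannot be told apart.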
